A study of Mus musculus with 17 samples.

Results

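Genes of cholesterol and fatty acid synthesis were followed across 5 progenitor fractions of mouse bone marrow. The set was a fixed list of 29 genes, chosen by pathway membership, with earlier results of these data known. Of these, 28 had a probe set that carried their symbol alone, out of 18193 genes measured, and the cytosolic thiolase gene Acat2 was not analysed here. For a gene with several probe sets, the 1 with the highest mean over the 17 arrays was used. The fractions were sorted from adult mice aged 10 to 14 weeks, with no genotype or treatment named in the labels. CLP, common lymphoid progenitors (Lin-Sca1lowKitlowIL7r+Flk2+), preGM, precursors of granulocytes and monocytes (Lin-Sca1-Kit+Itga2b-FcgRlowSlamf1-Englow), MkP, megakaryocyte progenitors (Lin-Sca1-Kit+Itga2b+Slamf1+), and preCFUE, an early erythroid stage (Lin-Sca1-Kit+Itga2b-FcgRlowSlamf1+Enghigh), had 3 arrays each. PreMegE, the bipotent megakaryocyte and erythroid precursor (Lin-Sca1-Kit+Itga2b-FcgRlowSlamf1+Englow), had 5 arrays. The short names other than preMegE come from general knowledge of the study, and the labels' description field names another sort gate for all 17 arrays and was not used. No source used here says that a fraction's arrays were hybridised with RNA of different animals, so p-values measure the spread between arrays, which may be technical.

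Cells build cholesterol from acetyl-CoA by way of mevalonate, isoprenoid units and squalene, which is closed into a ring by lanosterol synthase and trimmed in a series of further steps. Fatty acids start from the same acetyl-CoA, which Acly makes from citrate, Acaca carboxylates and Fasn polymerises, before elongases and desaturases shape the chain. Both routes are under the SREBP transcription factors, encoded by Srebf1 and Srebf2, which Scap escorts to the Golgi for cleavage when sterols run low and which the Insig proteins hold back. Dividing blood progenitors need both products for new membrane.

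Values are RMA intensities, listed per array in the order of the replicate numbers. Differences are on the log2(intensity + 16) scale, first fraction minus second, with ± giving the standard error (SE), and a change counts as past the test when the limma p-value adjusted over all 18193 genes is under 0.05. Intensities of different genes come from different probes and are not set against each other. The samples are bulk RNA, so fewer cells of a type and less RNA per cell cannot be told apart.

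Of 10 lineage genes checked, 10 passed the F test. Il7r, Flt3 and Dntt had their highest mean in CLP, Mpo and Ctsg in preGM, Pf4 and Itgb3 in MkP, and Klf1, Gata1 and Rhag in preCFUE. Il7r averaged 1752 in CLP, Mpo 7503 in preGM, Pf4 6431 in MkP and Klf1 2142 in preMegE and 2917 in preCFUE. In preCFUE against preMegE, 1 of the 10 passed. Of 8 sort marker genes measured, Eng among them, 0 rose and 3 fell there, with a highest log2 difference of 0.040. CLP replicate 2 stood apart, correlating at 0.961 with preGM and at 0.949 with the other CLP arrays. Its Gapdh 3-prime over 5-prime log2 ratio, a measure of RNA shortening, was 2.97 against 4.89 and 3.93 in the other two, within a range of 2.70 to 4.89 over all arrays. Of the CLP arrays, replicate 2 was the most like preGM, so leaving it out tends to widen differences from preGM. Larger differences without it are therefore no added support. Per array, the 75th percentile lay between 50.6 and 74.4, so results can depend on the scaling between arrays. Of 5 adipocyte markers measured, 0 passed the F test, their summed intensity ran from 55.2 to 89.2 over all arrays, and Adipoq averaged 7.64 to 8.36 in the 5 fractions. Of 7 macrophage markers 2 passed the F test, of 5 mature B and plasma cell markers 2, and of 5 T and NK cell markers 1. Their sums over all arrays ran from 82.7 to 137, from 62.1 to 273 and from 109.7 to 629. Cd79a, a B lineage gene, was higher in CLP than in preGM (1.46 ± 0.11, adjusted p = 5.57e-07), Cd68 was lower in preMegE (-1.29 ± 0.093, adjusted p = 2.13e-07) and CLP (-1.11 ± 0.10, adjusted p = 7.5e-06) than in preGM, Cd79b was lower in preMegE than in preGM (-1.07 ± 0.27, adjusted p = 0.0197) and higher in MkP than in preCFUE (1.41 ± 0.30, adjusted p = 0.00542), and the macrophage gene Adgre1 was higher in MkP than in preMegE (0.34 ± 0.092, adjusted p = 0.0303) and preCFUE (0.44 ± 0.10, adjusted p = 0.00912). Nkg7, a cytotoxic granule gene, was lower in preCFUE than in preMegE (-3.09 ± 0.22, adjusted p = 8.35e-07) and higher in MkP than in preCFUE (2.71 ± 0.25, adjusted p = 3.34e-06). Mature neutrophil markers (6 measured, 0 past the F test) varied most between arrays, with sums in CLP of 88.3 to 215, in preGM of 222 to 1531, in preMegE of 100.5 to 1541, in MkP of 124 to 1396 and in preCFUE of 211 to 393, and the part of these markers in the results was not tested.

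Of the 28 genes, 14 (50%) differed among the fractions by limma's F test, against 34.9% of all genes (9 without CLP replicate 1). The median range between the highest and lowest fraction mean was 0.74 on the log2 scale, against 0.45 over all genes. The 28 genes were brighter than most: 0 had a mean intensity under 16, where 6025 of the 18193 genes did. On mean log2 value, 25 lay above the median of all genes. Dim genes show only large changes on this scale, so the shares of all genes, here and below, are not those of equally bright genes. The part of brightness in these differences was not tested. The highest mean fell in preCFUE for 10 genes and in preGM for 9, that is 35.7% and 32.1% where all genes had 24.3% and 16.3%. The lowest mean fell in CLP for 13 genes (46.4%, against 28.8% of all genes). In single comparisons 19 of 140 tests were past the threshold (13.6%, against 12.5% over all genes), in 10 genes.

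**Figure D1:**
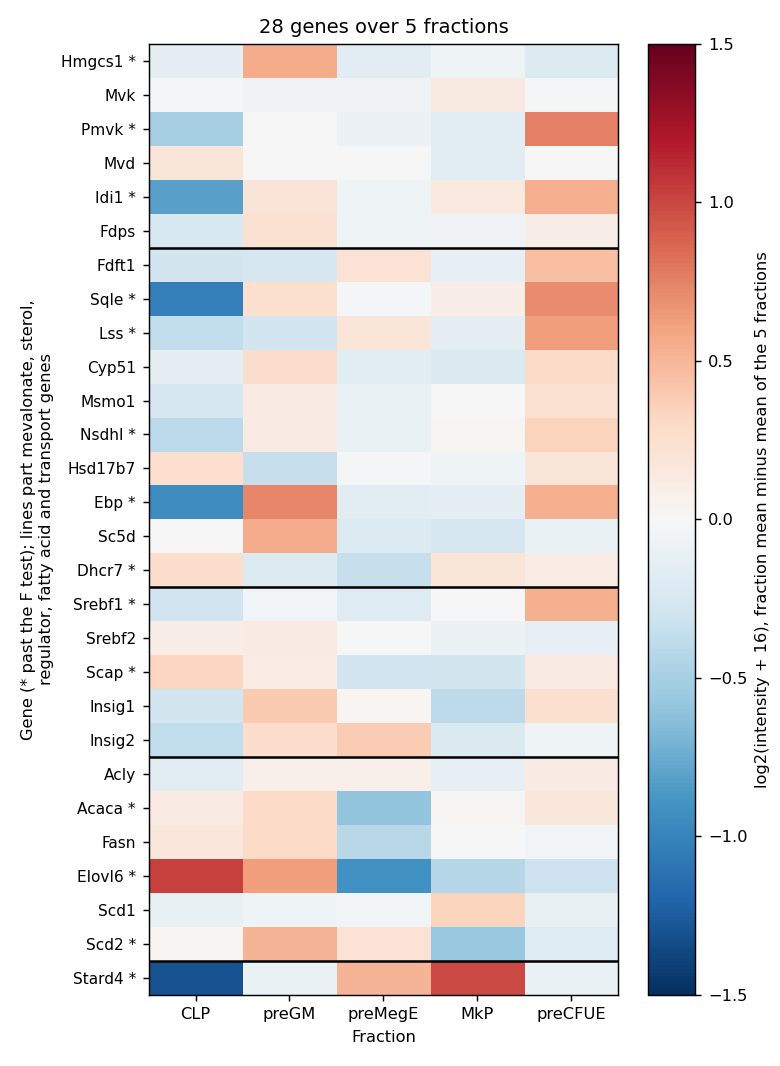
Colour shows each gene's mean log2(intensity + 16) in a fraction minus its mean over the 5 fractions, with genes in rows by role and fractions in columns; an asterisk marks the 14 of 28 genes past the F test. The preCFUE column is mostly red in the sterol rows, Elovl6 is high in CLP and preGM, and Stard4 runs from lowest in CLP to highest in MkP.

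In the mevalonate arm, preGM was the high fraction for Hmgcs1, which encodes the cytosolic synthase that commits acetyl units to the pathway. Hmgcs1 read 745, 851 and 850.4 in preGM, 495, 532 and 472 in CLP, 497, 372, 586, 523 and 507 in preMegE, 636, 455 and 503 in MkP and 481, 397 and 559 in preCFUE. All 3 preGM arrays lay above all 14 others. The difference was -0.71 ± 0.14 SE, adjusted p = 0.00406, for preMegE against preGM, and -0.69 ± 0.16 SE, adjusted p = 0.0111, for CLP against preGM. The first held under all 28 alternatives and the second was lost under quantile normalization (-0.25, adjusted p = 0.355).

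Idi1, the isomerase that readies the isoprenoid unit for chain building, read 51.3, 145 and 54.1 in CLP, 211, 183 and 119 in preGM, 144, 103, 139, 162 and 143 in preMegE, 164, 197 and 128 in MkP and 269, 185 and 206 in preCFUE. Replicates 1 and 3 of CLP were the lowest of the 17 arrays, while CLP replicate 2 lay among the preGM values. Idi1 fell in CLP against preGM (-0.9998 ± 0.30 SE, adjusted p = 0.0334) and by more without CLP replicate 2 (-1.41, adjusted p = 0.000754). That call ended without CLP replicate 1 or 3 or preGM replicate 1 or 2 (log2 -0.94 to -0.78, adjusted p 0.104 to 0.137), and under 4 other alternatives, among them the fit that adjusts for the 3-prime over 5-prime ratio (-0.66, adjusted p = 0.0558). Pmvk, a kinase upstream of it, passed the F test (adjusted p = 0.038) with 198, 111 and 170.2 in preCFUE and 52.2 to 99.2 in preMegE. All preCFUE arrays exceeded the preMegE arrays, and the difference did not pass (0.84 ± 0.27 SE, adjusted p = 0.0725). Mvk, Mvd and Fdps, the other enzymes of this arm, did not pass the F test (adjusted p = 0.681, 0.187 and 0.237). Mvk arrays ran from 39.5 to 63.4 in CLP and from 56.0 to 67.8 in MkP. Mvd was dim, at 15.9 to 32.7 over the 17 arrays, and read 27.6, 32.7 and 27.0 in CLP, 26.9, 20.4 and 24.0 in preGM and 20.1, 21.7 and 15.9 in MkP, so that the CLP arrays lay above those of preGM and MkP, without passing against preGM (0.18, adjusted p = 0.268).

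**Figure D2:**
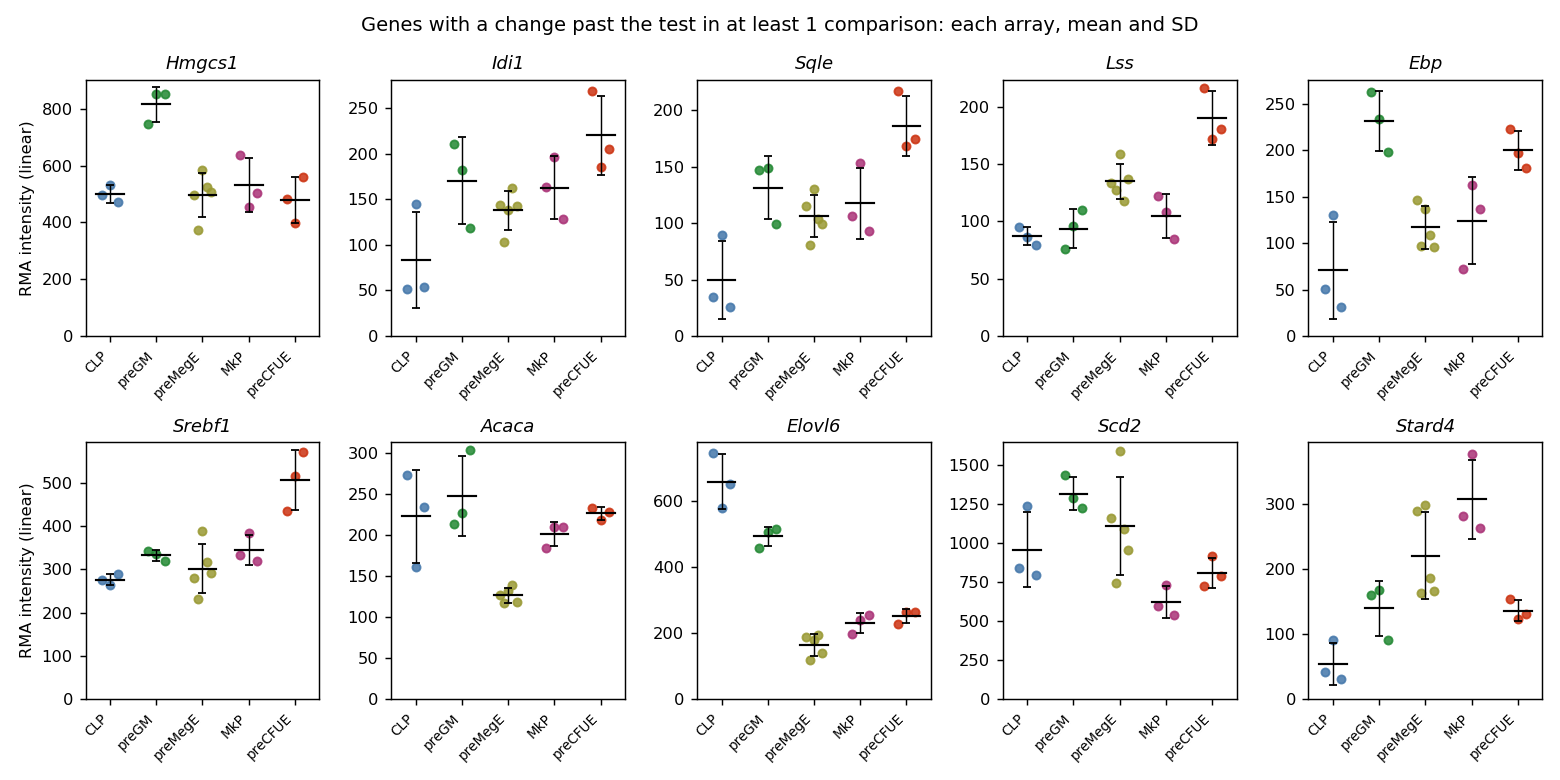
Points are single arrays, on a linear intensity axis that starts at 0; bars give the mean and SD of each fraction for the 10 genes with a change past the test. CLP replicate 2 (the middle CLP point) lies above the other two for Idi1, Sqle, Ebp and Stard4, and the 3 preCFUE arrays lie at the top for Sqle, Lss and Srebf1.

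The squalene and sterol arm was highest in preCFUE for several enzymes. Sqle, the epoxidase that is a rate-limiting step after squalene, read 217, 168 and 174 in preCFUE, 147, 148 and 99.1 in preGM, 115, 80.3, 130.4, 104 and 99.4 in preMegE, 106, 153 and 93.2 in MkP and 34.3, 89.3 and 25.6 in CLP. Every preCFUE array lay above the 14 others and every CLP array below the preGM arrays. Sqle fell in CLP against preGM (-1.27 ± 0.28 SE, adjusted p = 0.00949), and without CLP replicate 2 by -1.67 (adjusted p = 0.000155). A fit of the 6 arrays of that pair alone ended this call (adjusted p = 0.142). The rise from preMegE to preCFUE did not pass (0.74 ± 0.25 SE, adjusted p = 0.0998), and it passed in a fit of those 8 arrays alone (adjusted p = 0.0123).

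Lss, lanosterol synthase, which closes the sterol ring, read 216, 172 and 181 in preCFUE, 133, 128, 159, 117 and 137 in preMegE, 122, 108 and 84.5 in MkP, 75.5, 95.9 and 109.7 in preGM and 95.1, 86.5 and 79.7 in CLP. The order ran from CLP and preGM, which overlap, through preMegE to preCFUE, with no overlap between preGM, preMegE and preCFUE. Lss was higher in preMegE than in preGM (0.47 ± 0.13 SE, adjusted p = 0.03), higher in preCFUE than in preMegE (0.45 ± 0.13 SE, adjusted p = 0.0387) and lower in MkP than in preCFUE (-0.78 ± 0.14 SE, adjusted p = 0.00165). The first call ended without preGM replicate 1 or 2 or preMegE replicate 1, 3 or 5 (log2 0.34 to 0.49, adjusted p 0.0556 to 0.198). The second ended without preGM replicate 2, any preCFUE array or preMegE replicate 1, 2, 4 or 5 (log2 0.36 to 0.51, adjusted p 0.0524 to 0.206), and under quantile normalization the second and the third were lost (0.37, adjusted p = 0.149, and -0.44, adjusted p = 0.088). With the mean over the 3 Lss probe sets all 3 calls were lost (0.28, 0.19 and -0.29).

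Ebp, the sterol isomerase, read 263, 234 and 198 in preGM, 222, 197 and 181 in preCFUE, 147, 97.4, 137, 109 and 95.9 in preMegE, 72.3, 163 and 137 in MkP and 50.2, 130.4 and 31.7 in CLP. The preGM and preCFUE arrays lay above all preMegE, MkP and CLP arrays. Ebp fell in CLP against preGM (-1.67 ± 0.33 SE, adjusted p = 0.00505), the largest fall of the set in that comparison, and by -2.13 without CLP replicate 2 (adjusted p = 0.00011). A fit of that pair's arrays alone ended the call (adjusted p = 0.109). Against preGM, preMegE was lower without passing (-0.90 ± 0.30 SE, adjusted p = 0.091), and against preMegE, preCFUE was higher without passing (0.71 ± 0.30 SE, adjusted p = 0.204).

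Of the other 7 enzymes of this arm, Nsdhl and Dhcr7 passed the F test (adjusted p = 0.0434 and 0.0488). Nsdhl, a decarboxylating dehydrogenase, read 155, 173 and 139 in preCFUE and 70.2, 104 and 91.7 in CLP, and CLP against preGM did not pass (-0.51 ± 0.18 SE, adjusted p = 0.0622) but did without CLP replicate 2 (-0.62, adjusted p = 0.0294). Dhcr7, which makes the last reduction to cholesterol, had its highest mean in CLP at 176, 155 and 289 and its lowest mean in preMegE at 114, 110.4, 136, 129 and 135. MkP exceeded preMegE in every array at 201, 149.5 and 219, without passing (0.54 ± 0.18 SE, adjusted p = 0.077). Fdft1 (squalene synthase), Cyp51 and Msmo1 (sterol demethylation), Hsd17b7 and Sc5d did not pass the F test, at adjusted p = 0.321, 0.151, 0.796, 0.285 and 0.13. PreGM replicate 3 was lowest of its fraction for Fdft1 (138, 143 and 34.6), Cyp51 (73.4, 66.8 and 31.6), Msmo1 (74.8, 55.7 and 23.4) and Hsd17b7 (78.1, 89.5 and 40.2), and highest for Sc5d (59.1, 36.0 and 82.0).

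Stretches upstream of the start site are shown for 5 of the 10 genes with a change past the test, because SREBPs and their partner NF-Y are known to act close to the start of genes in this pathway. They are RefSeq sequences of build GRCm38.p6, the 250 bases before the annotated start, 5′ to 3′ on the gene's strand. Capitals mark matches on either strand to the sterol regulatory element TCACNCCAC and the NF-Y box CCAAT (read as ATTGG on the other strand).
Hmgcs1, chr13:119690101-119690350, plus strand: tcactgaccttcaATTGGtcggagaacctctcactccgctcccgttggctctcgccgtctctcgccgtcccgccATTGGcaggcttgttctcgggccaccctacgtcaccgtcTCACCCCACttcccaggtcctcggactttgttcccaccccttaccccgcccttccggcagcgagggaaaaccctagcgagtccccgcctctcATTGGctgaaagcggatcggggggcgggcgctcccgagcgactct
Idi1, chr13:8885356-8885605, plus strand: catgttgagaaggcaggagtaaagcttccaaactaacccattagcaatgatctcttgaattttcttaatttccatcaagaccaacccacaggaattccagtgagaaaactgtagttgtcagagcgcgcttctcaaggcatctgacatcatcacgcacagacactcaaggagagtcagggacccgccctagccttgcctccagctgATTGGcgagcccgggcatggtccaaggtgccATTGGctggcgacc
Lss, chr10:76531355-76531604, plus strand: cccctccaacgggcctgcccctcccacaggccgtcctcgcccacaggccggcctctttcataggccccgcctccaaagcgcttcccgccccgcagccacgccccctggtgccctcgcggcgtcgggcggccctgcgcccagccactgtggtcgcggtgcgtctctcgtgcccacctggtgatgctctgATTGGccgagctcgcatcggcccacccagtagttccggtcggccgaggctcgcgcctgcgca
Ebp, chrX:8193513-8193762, minus strand: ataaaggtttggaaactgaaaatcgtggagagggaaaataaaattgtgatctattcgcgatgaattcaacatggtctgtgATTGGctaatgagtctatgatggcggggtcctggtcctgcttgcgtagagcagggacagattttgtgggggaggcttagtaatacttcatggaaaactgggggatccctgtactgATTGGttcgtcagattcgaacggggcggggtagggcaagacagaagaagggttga
Elovl6, chr3:129532136-129532385, plus strand: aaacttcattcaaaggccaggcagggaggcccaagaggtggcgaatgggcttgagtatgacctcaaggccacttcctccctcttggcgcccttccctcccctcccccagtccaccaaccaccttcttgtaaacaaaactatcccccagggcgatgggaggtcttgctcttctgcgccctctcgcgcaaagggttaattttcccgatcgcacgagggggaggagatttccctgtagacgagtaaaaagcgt

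Hmgcs1 held 1 sterol element match, TCACCCCAC, starting 137 bases before the start, and 3 NF-Y boxes, while Idi1 and Ebp held 2 NF-Y boxes each and Lss 1. The Elovl6 stretch held no match to these motifs or to the E-box CACGTG. The Acaca stretch, not shown, held none either, and its GC content was 39.2%, against a median of 52.4% over all stretches. Which start these cells use was not measured. Promoter entries were found for 23 of the 29 genes, some with several, giving 31 stretches. Of these 31, 1 (3.23%) held the sterol element, 19 (61.3%) an NF-Y box and 5 (16.1%) the E-box. Over all 32851 stretches of the same length in the table the shares were 1.05%, 33.8% and 6.02%. A match is a run of letters, not a bound site, and binding was not measured.

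Among the 5 regulators, Srebf1 and Scap passed the F test and Srebf1 passed in single comparisons. Srebf1 read 435, 517 and 573 in preCFUE, 333, 385 and 319.99 in MkP, 343, 337 and 319 in preGM, 279, 232, 388, 317 and 292 in preMegE and 276, 264 and 289 in CLP. The 3 preCFUE arrays were the highest of the 17. Srebf1 rose from preMegE to preCFUE (0.73 ± 0.13 SE, adjusted p = 0.00196), a call that held under all 28 alternatives. It was lower in MkP than in preCFUE (-0.53 ± 0.14 SE, adjusted p = 0.0213), and this ended under quantile normalization (-0.12, adjusted p = 0.71), in the replicate block fit (adjusted p = 0.0541) and without MkP replicate 1 or 3 or preCFUE replicate 2 or 3 (log2 -0.51 to -0.44, adjusted p 0.0582 to 0.0966).

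Srebf2, which encodes the SREBP most tied to sterol genes, stayed within 36.0 to 63.0 over all 17 arrays and did not pass the F test (adjusted p = 0.358). Its values in preCFUE, 36.1, 43.3 and 57.9, overlapped those in preMegE, 55.3, 45.1, 51.1, 48.6 and 51.4. Scap passed the F test (adjusted p = 0.0263), at 369, 376 and 377 in CLP, 297, 325 and 341 in preGM, 321, 331 and 321 in preCFUE, 289.8, 277 and 173 in MkP and 264, 186, 313, 246 and 205 in preMegE, and passed in none of the 5 comparisons. PreCFUE against preMegE came to 0.42 ± 0.16 SE, adjusted p = 0.149, and preMegE against preGM to -0.40 ± 0.16 SE, adjusted p = 0.191. Insig1, itself a known SREBP target, and Insig2 did not pass the F test (adjusted p = 0.0933 and 0.0704). Insig1 read 86.2, 94.0 and 81.0 in preGM and 70.6, 65.1 and 22.7 in CLP, where all 3 arrays lay below those of preGM and replicate 3 was the lowest, and the difference did not pass (-0.67 ± 0.26 SE, adjusted p = 0.0834). Insig2 was lower in MkP (72.1, 126 and 65.9) than in preMegE (166, 109.9, 184, 111 and 127) without passing (-0.60 ± 0.23 SE, adjusted p = 0.114), although 1 of its 2 other probe sets passed there (-0.99, adjusted p = 0.0314). Insig2 in CLP against preGM did not pass either (-0.63 ± 0.25 SE, adjusted p = 0.0946), and both Insig genes passed in that pair without CLP replicate 2 (-0.83, adjusted p = 0.038 for Insig1 and -0.83, adjusted p = 0.0303 for Insig2).

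Among the fatty acid genes, Elovl6, Acaca and Fasn had their lowest means in preMegE. Elovl6, the elongase that takes palmitate to stearate, read 745, 577 and 651 in CLP, 458, 505 and 513 in preGM, 226, 263 and 264 in preCFUE, 195, 239 and 255 in MkP and 187, 119, 178, 193 and 137 in preMegE. CLP lay above preGM, and preGM above all 11 arrays of the megakaryocyte and erythroid fractions, with no overlap. Elovl6 was lower in preMegE than in preGM (-1.53 ± 0.14 SE, adjusted p = 3.49e-06), the largest difference of the set outside CLP, and this held under all 29 alternatives. A second Elovl6 probe set fell as well (-1.32, adjusted p = 9.7e-06). Elovl6 rose from preMegE to preCFUE (0.60 ± 0.14 SE, adjusted p = 0.0153) and to MkP (0.47 ± 0.14 SE, adjusted p = 0.0495).

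Both rises were less stable. The preCFUE call ended without preCFUE replicate 2 or 3 (log2 0.56, adjusted p 0.0694 to 0.0764), under quantile normalization (0.51, adjusted p = 0.0949) and with the replicate block (adjusted p = 0.0564). The MkP call ended in 21 of 29 alternatives, among them without CLP replicate 3, any preGM or preCFUE array, preMegE replicate 2, 3 or 5, or MkP replicate 2 or 3 (log2 0.38 to 0.51, adjusted p 0.0537 to 0.202), and with the mean over the 3 probe sets it was 0.16. CLP exceeded preGM without passing (0.40 ± 0.16 SE, adjusted p = 0.0892), and passed without CLP replicate 2 (0.49, adjusted p = 0.0469).

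Acaca, acetyl-CoA carboxylase, the committed step of fatty acid synthesis, read 127, 118, 131, 139 and 118 in preMegE against 213, 227 and 304 in preGM, 273, 161 and 235 in CLP, 184, 209.8 and 210.1 in MkP and 233, 218 and 229 in preCFUE. The 5 preMegE arrays were the lowest of the 17. Acaca was lower in preMegE than in preGM (-0.88 ± 0.14 SE, adjusted p = 0.000546), a call that held under all 28 alternatives, and it was higher in preCFUE (0.77 ± 0.14 SE, adjusted p = 0.00226) and in MkP (0.61 ± 0.14 SE, adjusted p = 0.0107) than in preMegE. The preCFUE call ended under quantile normalization (0.67, adjusted p = 0.0785), and the MkP call without MkP replicate 3 (0.58, adjusted p = 0.0525). With the mean over the 2 Acaca probe sets the differences were -0.40, 0.41 and 0.34, and all 3 passed.

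Fasn, fatty acid synthase, read 448, 298, 551, 450.1 and 411 in preMegE and 568, 526 and 1146 in preGM, where preGM replicate 3 was the highest of the 3 and the ranges overlapped. It did not pass the F test (adjusted p = 0.109), and preMegE against preGM came to -0.70 ± 0.22 SE, adjusted p = 0.0754. Acly, which supplies the acetyl-CoA, lay within 1317 to 2281 over the 17 arrays (F test adjusted p = 0.289).

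Scd1 and Scd2, both stearoyl-CoA desaturase genes, which put the double bond into stearate, had their highest means in different fractions. Scd2 passed the F test (adjusted p = 0.0133) and read 1432, 1286 and 1225 in preGM, 1161, 742, 1589.5, 1089 and 954 in preMegE, 839, 1233 and 794 in CLP, 724, 912 and 786 in preCFUE and 596, 732 and 534 in MkP. The 3 MkP arrays lay below all preMegE arrays, and Scd2 was lower in MkP (-0.79 ± 0.20 SE, adjusted p = 0.023). That call ended without preMegE replicate 1 or MkP replicate 1 or 3 (log2 -0.76 to -0.69, adjusted p 0.0525 to 0.115), with the replicate block (-0.84, adjusted p = 0.111) and when its probe sets were averaged (-0.38, adjusted p = 0.0836). Scd1 was dim, at 17.4 to 48.9 over all arrays, had its highest mean in MkP (48.9, 34.9 and 36.6) and did not pass the F test (adjusted p = 0.225). For MkP against preCFUE it came to 0.46 ± 0.19 SE, adjusted p = 0.118. The difference between the 2 genes' changes was not tested.

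Stard4, which encodes a cytosolic carrier of sterol and is a known SREBP target, spanned the widest range of the set, 2.29 on the log2 scale between its highest and lowest fraction means. It read 281, 377 and 264 in MkP, 289, 162, 298, 186 and 167 in preMegE, 160.2, 167 and 90.2 in preGM, 154, 123 and 130.1 in preCFUE and 40.4, 90.9 and 29.9 in CLP. MkP lay above preCFUE, and CLP lay below all other arrays except that CLP replicate 2 was level with preGM replicate 3. MkP and preMegE overlapped, as did preGM and preCFUE. Stard4 was higher in MkP than in preCFUE (1.08 ± 0.31 SE, adjusted p = 0.03) and lower in CLP than in preGM (-1.21 ± 0.31 SE, adjusted p = 0.0193), the latter -1.57 without CLP replicate 2 (adjusted p = 0.00158). The first call ended without any 1 of the 6 arrays of that pair (log2 0.93 to 1.18, adjusted p 0.0544 to 0.096), and the second without CLP replicate 1 or 3 or preGM replicate 1 or 2 (log2 -1.11 to -0.96, adjusted p 0.0695 to 0.0926). The steps from preGM to preMegE (0.60 ± 0.28, adjusted p = 0.306), from preMegE to MkP (0.48 ± 0.28, adjusted p = 0.313) and from preMegE to preCFUE (-0.60 ± 0.28, adjusted p = 0.271) did not pass.

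The comparisons show how the groups of genes moved side by side. For preMegE against preGM, 2 sister precursors of which the first leads to platelets and red cells and the second to granulocytes and monocytes, 1 of 28 genes rose (Lss, 3.57%, against 2.81% of all genes) and 3 fell (Hmgcs1, Acaca and Elovl6, 10.7%, against 5.88% of all genes), and 24 did not pass. The median difference was -0.22, with 21 genes lower, against 0.013 over all genes. In the mevalonate arm the median was -0.18, with 1 of 6 past the test, and Mvk (-0.0012) and Mvd (-0.011) lay near 0. In the fatty acid group the median was -0.49, with 2 of 6 past the test. Of 19 S phase genes, 7 fell and 0 rose in the same comparison, with sums of 28876 to 30119 in preGM and 16390 to 23289 in preMegE, and their part in these values was not tested.

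For preCFUE against preMegE, the step toward red cells, 4 of 28 genes rose (Lss, Srebf1, Acaca and Elovl6, 14.3%, against 4.75% of all genes), 0 fell (against 3.94% of all genes) and 24 did not pass. With the fit limited to the 8 arrays of this pair, 10 rose, the others being Pmvk, Idi1, Sqle, Cyp51, Ebp and Dhcr7, and without the CLP arrays 7 rose. Under quantile normalization 1 rose and 1 fell, with the replicate block 2 rose, and without preCFUE replicate 3 the count was 2. The shares of all genes above are not those under these settings, so these counts of the 28 have no such share beside them. All 10 genes of the squalene and sterol arm were higher in preCFUE, at a median of 0.44, with 1 past the test. Under quantile normalization all 10 were higher, at a median of 0.37, with 0 past the test. Over all genes 9507 of 18193 were higher, and so were all 18 G2 and M phase and all 19 S phase genes measured. The median over all 28 was 0.28, against 0.0062 over all genes. Cell cycle genes rose in the same comparison, 16 of 18 G2 and M phase genes, with sums of 3826 to 6352 in preMegE and 9791 to 11869 in preCFUE, and 9 of 19 S phase genes, with 31966 to 33929 in preCFUE. Their part in the lipid gene values was not tested.

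For MkP against preMegE, the step toward megakaryocytes, 2 of 28 genes rose (Acaca and Elovl6, 7.14%, against 3.98% of all genes), 1 fell (Scd2, 3.57%, against 6.37%) and 25 did not pass. These counts are near the shares of all genes, and without MkP replicate 3 the count past the test was 0, while for all genes it was 1184 in place of 1882. The median difference was 0.020, and its sign turned under median centring (-0.016). Here too G2 and M phase genes rose, 13 of 18, with sums of 9156 to 12645 in MkP. Of 19 S phase genes, 4 rose and 0 fell. The part of the cell cycle genes in the lipid gene values was not tested. The median of the sterol arm was -0.0062 (0.20 under quantile normalization). Under quantile normalization 4 genes rose, with Srebf1 (0.51, adjusted p = 0.0265) and Stard4 (0.79, adjusted p = 0.0352) added. Over all genes the share of calls that were higher was 38.5%, and 56.4% under that scaling.

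Between the branches, MkP against preCFUE, 1 of 28 genes rose (Stard4, 3.57%, against 5.51% of all genes), 2 fell (Lss and Srebf1, 7.14%, against 10.7%) and 25 did not pass. Both shares were below those of all genes. Pmvk was lower in MkP in every array (81.2, 70.8 and 72.6) without passing (-0.92 ± 0.30 SE, adjusted p = 0.0506). Of the 10 sterol genes, 9 were lower in MkP, at a median of -0.40, and under quantile normalization 7 were lower, at -0.21. Of 19 S phase genes, 16 were lower in MkP, 4 of them past the test and 0 higher past it, at a median of -0.52, with sums of 24495 to 25989 in MkP and 31966 to 33929 in preCFUE, while 0 of 18 G2 and M phase genes passed. Their part in these values was not tested. The median over all 28 was -0.25 and turned to 0.0080 under that scaling, where the share of higher calls over all genes went from 34.0% to 52.9%. Without MkP replicate 1, MkP replicate 3 or preCFUE replicate 3, 1 gene remained past the test in each case, and without CLP replicate 2 there were 5.

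For CLP against preGM, the lymphoid against the myeloid side, 0 of 28 genes rose (against 5.07% of all genes), 5 fell (Hmgcs1, Idi1, Sqle, Ebp and Stard4, 17.9%, against 13.3% of all genes) and 23 did not pass. The median was -0.32, and -0.081 under quantile normalization, where 3 rose (Hsd17b7, Scap and Elovl6) and 3 fell (Sqle, Ebp and Stard4). Without CLP replicate 2, 12 genes passed, 2 higher (Dhcr7, 0.64, adjusted p = 0.0324, and Elovl6) and 10 lower, the additions being Fdps (-0.53, adjusted p = 0.0489), Nsdhl, Insig1, Insig2 and Scd2 (-0.67, adjusted p = 0.0408). Over all genes the count went from 3337 to 6032. CLP replicate 2 was the CLP array most like preGM, so its removal favours more calls in this pair. The added calls are no further support. Leaving out CLP replicate 1 or 3, or preGM replicate 1 or 2, left 3 genes each, and without preGM replicate 3 there were 8. With all arrays, Fdps (-0.46 ± 0.17, adjusted p = 0.077) and Hsd17b7 (0.60 ± 0.25, adjusted p = 0.0995) did not pass. Of 18 G2 and M phase genes, 9 fell in CLP, with sums of 3824 to 4709 in CLP and 5938 to 6638 in preGM, and 6 of 19 S phase genes fell, and their part in the result was not tested. When the fit adjusted for the 3-prime over 5-prime ratio, 4 of the 28 fell and 0 rose. In a fit of only the arrays of this pair, 1 of the 28 fell (Hmgcs1) and 0 rose. The calls of Idi1, Sqle, Ebp and Stard4 ended there, and the count over all genes was lower too. Over all genes the share of calls that were higher was 27.7%, with 43.4% under quantile normalization and 15.9% under median centring.

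**Figure D3:**
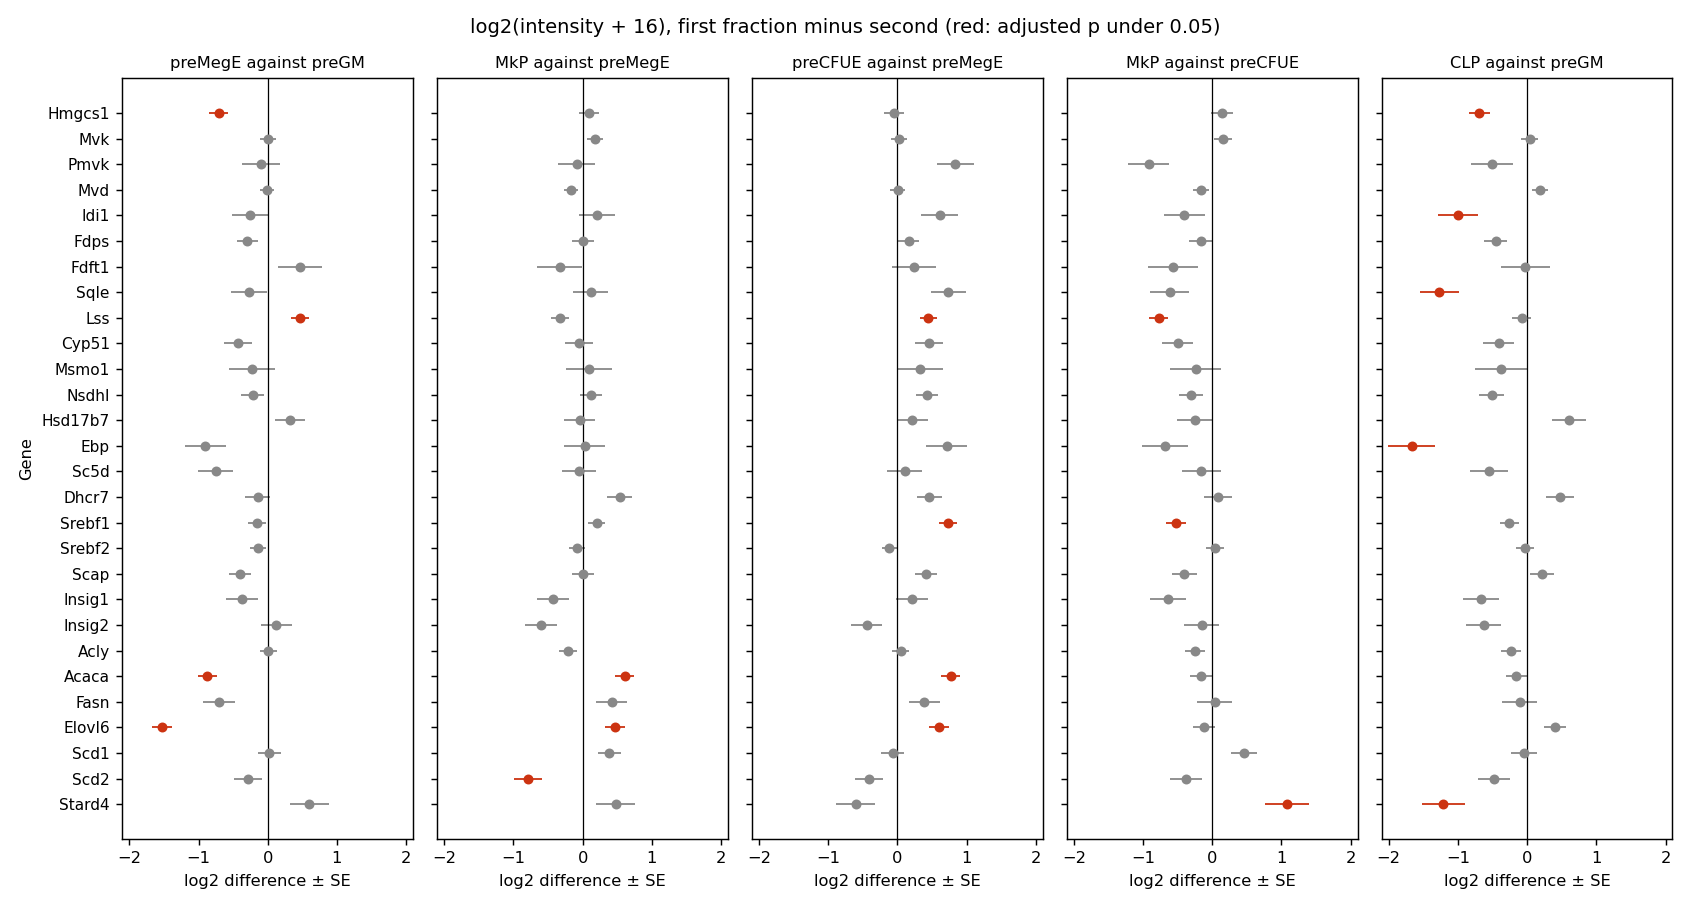
Each panel is 1 comparison, with the log2 difference (first fraction minus second) on the horizontal axis, bars of ± 1 SE and 1 row per gene; red marks adjusted p under 0.05. In preCFUE against preMegE all 10 sterol arm genes, Fdft1 to Dhcr7, lie right of 0, and in CLP against preGM the red points are all left of 0.

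Lists of other sterol and fatty acid genes were set beside the 28. Of 20 other fatty acid synthesis, activation and desaturation genes, 14 passed the F test (70.0%, against 34.9% of all genes). Acss2, the cytosolic enzyme that makes acetyl-CoA from acetate, read 23.1, 16.2 and 9.40 in CLP, 92.1, 119 and 115 in preGM, 369, 335, 348, 357 and 372 in preMegE, 206, 165 and 245 in MkP and 364, 380.3 and 409.6 in preCFUE. CLP, preGM, MkP and preMegE followed in rising order with no overlap between neighbours, and preCFUE overlapped preMegE. It was higher in preMegE than in preGM (1.58 ± 0.13 SE, adjusted p = 1.11e-06), lower in MkP than in preMegE (-0.77 ± 0.13 SE, adjusted p = 0.00167) and lower in CLP than in preGM (-1.97 ± 0.15 SE, adjusted p = 8.74e-07), and the MkP call was lost under quantile normalization (-0.45, adjusted p = 0.137). In preMegE against preGM, 1 of the 20 rose (against 2.81% of all genes) and 2 fell (against 5.88%), the elongase gene Elovl5 (-0.64 ± 0.15, adjusted p = 0.0107) and the enoyl reductase gene Tecr (-0.66 ± 0.17, adjusted p = 0.0265). Elovl5 missed the threshold when preGM replicate 1 was left out (-0.61, adjusted p = 0.0528), and Tecr without any preGM array or preMegE replicate 1, 2, 4 or 5 (-0.71 to -0.59, adjusted p 0.0515 to 0.115).

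In preCFUE against preMegE, 3 of the 20 rose (15.0%, against 4.75% of all genes) and 0 fell (against 3.94%). They were Slc25a1, the mitochondrial citrate carrier (1.0004 ± 0.25, adjusted p = 0.0225), the desaturase gene Fads2 (0.90 ± 0.23, adjusted p = 0.0259) and the elongase gene Elovl1 (0.74 ± 0.12, adjusted p = 0.000838). Slc25a1 read 434, 411 and 433 in preCFUE and 238, 159.9, 274, 162 and 212 in preMegE, and its call ended without any preCFUE array or preMegE replicate 2 or 4 (0.92 to 1.03, adjusted p 0.052 to 0.0828). Fads2 read 144, 61.0 and 68.5 in preCFUE, and its rise was 0.57 without replicate 1, the highest array (adjusted p = 0.157), and the call also ended without preMegE replicate 2, 4 or 5 (0.57 to 0.89, adjusted p 0.0516 to 0.157). In MkP against preMegE, 0 rose (against 3.98% of all genes) and 3 fell (15.0%, against 6.37%), the acyl-CoA synthetase gene Acsl5 (-0.95 ± 0.25, adjusted p = 0.0274), Elovl5 (-0.89 ± 0.15, adjusted p = 0.00111) and Acss2. The Acsl5 call ended without preMegE replicate 1, 3 or 4 or MkP replicate 1 or 3 (-0.96 to -0.81, adjusted p 0.0505 to 0.137).

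In MkP against preCFUE, 0 of the 20 rose (against 5.51% of all genes) and 7 fell (35.0%, against 10.7%), led by Slc25a1 (-1.70 ± 0.28, adjusted p = 0.000923), Acsl5 (-1.58 ± 0.28, adjusted p = 0.0016) and Acsl4 (-1.08 ± 0.32, adjusted p = 0.034), and under quantile normalization 4 fell. The Acsl4 call ended under that scaling (-0.85, adjusted p = 0.0955) and without any 1 of the 6 arrays of the pair (-1.20 to -0.95, adjusted p 0.0562 to 0.123). In CLP against preGM, 2 rose (10.0%, against 5.07% of all genes) and 5 fell (25.0%, against 13.3%), led by Acss2, Mid1ip1, a regulator of acetyl-CoA carboxylase (-1.39 ± 0.33, adjusted p = 0.013), and Acsl3 (-1.24 ± 0.25, adjusted p = 0.00532). The Mid1ip1 call ended in a fit of that pair alone and without CLP replicate 3 (-1.14, adjusted p = 0.0653). Acss2 and Acsl3 in this pair held in every alternative in which they were tested.

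Of 12 other sterol and isoprenoid genes, 4 passed the F test (33.3%), a share near the 34.9% of all genes. Npc1 and Npc2, which move cholesterol out of lysosomes, were both lower in preMegE than in preGM (-1.09 ± 0.27, adjusted p = 0.0169, and -0.66 ± 0.18, adjusted p = 0.0394), the 2 falls of this list (16.7%, against 5.88% of all genes) beside 0 rises (against 2.81%). Npc1 read 65.5, 81.0 and 93.5 in preGM and 33.8, 15.6, 52.4, 28.1 and 21.9 in preMegE. Its call ended without preGM replicate 2 or 3 (-1.08 to -0.99, adjusted p 0.0651 to 0.08), and that of Npc2 without 9 arrays, namely preGM replicate 1 or 2, preMegE replicate 1, 2 or 4, MkP replicate 1 or any preCFUE array (-0.67 to -0.55, adjusted p 0.0505 to 0.179). Averaging the Npc2 probe sets brought it to -0.40 (adjusted p = 0.163). The list had 2 falls (against 6.37% of all genes) and 0 rises (against 3.98%) in MkP against preMegE, Npc2 (-0.996 ± 0.18, adjusted p = 0.00283) and Ggps1, which makes geranylgeranyl diphosphate (-0.83 ± 0.23, adjusted p = 0.033), whose call ended under quantile normalization (-0.71, adjusted p = 0.0765) and without preMegE replicate 3 or 5 or MkP replicate 2 or 3 (-0.80 to -0.61, adjusted p 0.0671 to 0.138).

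Cox10, which attaches a farnesyl group to heme for cytochrome oxidase, was the 1 rise (8.33%, against 4.75% of all genes) in preCFUE against preMegE (0.53 ± 0.13, adjusted p = 0.0149), with 0 falls (against 3.94%), and it ended without preCFUE replicate 1 or 3 (0.50 to 0.54, adjusted p 0.0554 to 0.0737). MkP against preCFUE had 0 rises (against 5.51% of all genes) and 3 falls (25.0%, against 10.7%), Npc2 (-0.84 ± 0.21, adjusted p = 0.0131), Dhdds, a dolichol synthesis gene (-0.65 ± 0.20, adjusted p = 0.042), and Cox10 (-0.62 ± 0.14, adjusted p = 0.00857). The Npc2 call there ended without MkP replicate 3 or preCFUE replicate 3 (-0.77 to -0.62, adjusted p 0.0555 to 0.0668), and the Dhdds call without 10 single arrays, namely preGM replicate 2, preMegE replicate 1, 3, 4 or 5, MkP replicate 2 or 3 or any preCFUE array (-0.70 to -0.44, adjusted p 0.0505 to 0.193). Under quantile normalization Dhdds came to -0.40 (adjusted p = 0.283) and Cox10 to -0.34 (adjusted p = 0.097), and with its probe sets averaged Npc2 came to -0.51 (adjusted p = 0.0539). CLP against preGM had 0 rises (against 5.07% of all genes) and 3 falls (25.0%, against 13.3%), Erlin1, which acts in the turnover of sterol-regulated membrane proteins (-1.18 ± 0.33, adjusted p = 0.0252), Npc2 (-0.75 ± 0.21, adjusted p = 0.0253) and Cox10 (-0.57 ± 0.14, adjusted p = 0.0155). Erlin1 and Npc2 ended without CLP replicate 1 or 3 or preGM replicate 1 or 2 (-1.19 to -0.81, adjusted p 0.0663 to 0.113, and -0.73 to -0.61, adjusted p 0.077 to 0.11), and Cox10 without CLP replicate 1 or 3 or preGM replicate 2 (-0.55 to -0.46, adjusted p 0.0518 to 0.0759). Quantile normalization ended all 3 as well (-0.75, adjusted p = 0.0528, -0.33, adjusted p = 0.0557, and -0.34, adjusted p = 0.0879), and with its probe sets averaged Cox10 came to -0.24 (adjusted p = 0.0648).

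**Figure D4:**
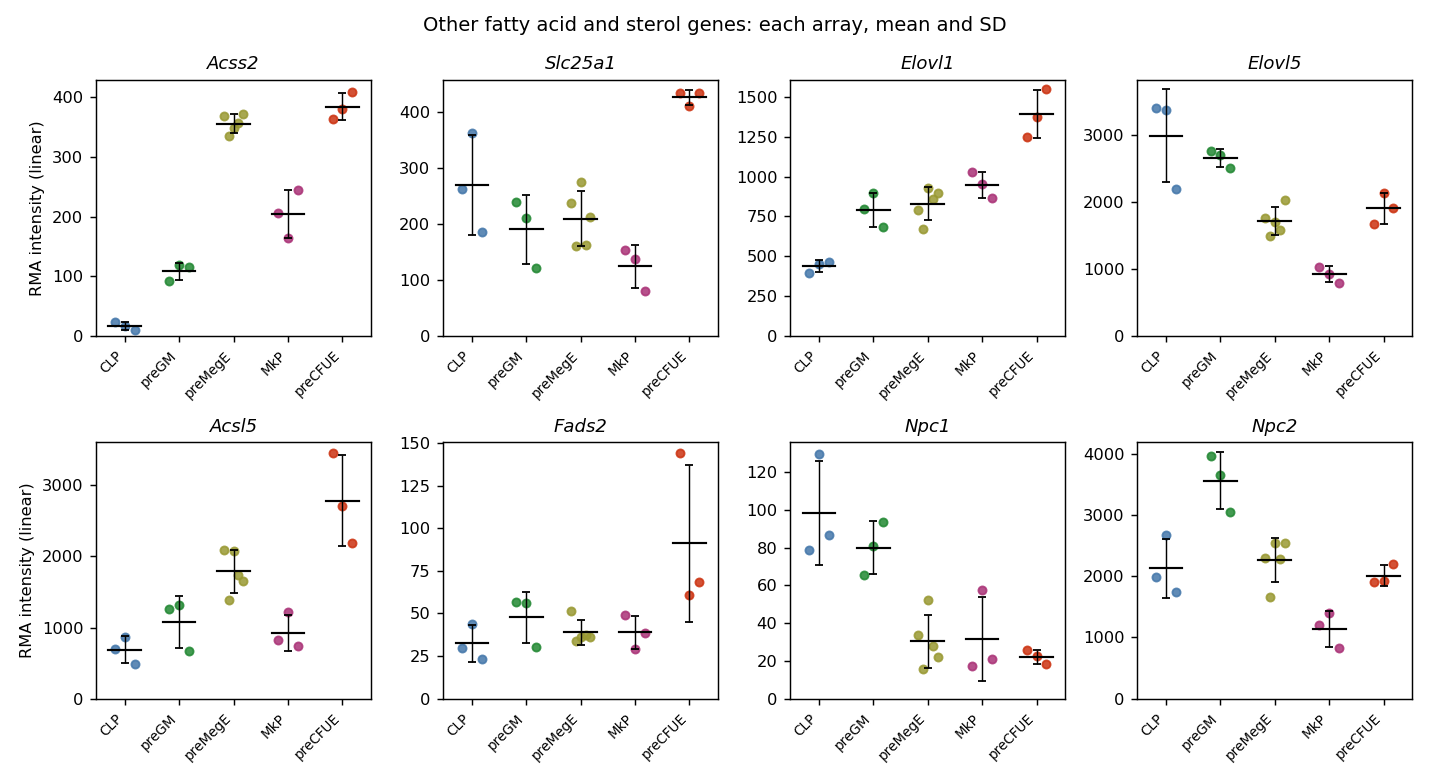
Points are single arrays on a linear intensity axis that starts at 0, with the mean and SD per fraction, for 8 genes outside the set. Acss2 is lowest in CLP and highest in preMegE and preCFUE, Slc25a1 and Elovl1 peak in preCFUE, and Elovl5 and Npc2 are lowest in MkP.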

How the data were processed

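The deposited table holds RMA intensities on a linear scale for 45101 probe sets and 17 arrays; the authors amplified the RNA with a small-sample protocol and used RMA, per the labels and the series' design text, and the software version is not given in the sources used here. Gene names came from GEO's annotation of the array, in which 34958 probe sets had 1 symbol, 932 several and 9160 none listed; these gave 18193 genes. The members and lists were chosen with earlier results of these data known. Values were taken as log2(intensity + 16), which understates changes of dim genes, and no detection call was given per probe set. All 17 arrays entered 1 limma 3.58.1 model (R 4.3.3) with a term per fraction, 12 residual degrees of freedom and Benjamini-Hochberg adjustment over all genes. The script was tested on simulated data. Every member is named; those past the F test with a change of at least 1 log2 unit past the test (Sqle, Ebp, Elovl6 and Stard4) were to be given per array, and the other members past a test were added after their values were seen. From the other lists, up to 3 genes per comparison were named. Alternatives were 2 scalings, 2 pseudocounts, 2 filters, the mean over probe sets, array weights, the 3-prime over 5-prime ratio as covariate, a replicate block, a fit per comparison, each array left out, and, added after seeing the data, all CLP arrays left out. The number of arrays limits the precision. Promoters were searched with Python 3.11.15 and plots drawn with matplotlib 3.10.9.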

Additional observations from a re-analysis of the deposited data

How the results depend on the processing

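Of the 19 changes past the test among the 28 genes, 4 kept direction and threshold under every alternative in which they were tested (Hmgcs1, Acaca and Elovl6 in preMegE against preGM and Srebf1 in preCFUE against preMegE), 15 lost the call under at least 1, and none turned direction. Comparisons follow in the order preMegE against preGM, MkP against preMegE, preCFUE against preMegE, MkP against preCFUE, CLP against preGM and the F test, where the counts of the 28 genes were 4, 3, 4, 3, 5 and 14 and those of all genes 1581, 1882, 1581, 2949, 3337 and 6345. Leaving out 1 array at a time gave 3 to 5, 0 to 4, 2 to 6, 1 to 5, 3 to 12 and 9 to 16 of the 28, and 1218 to 1753, 1184 to 2395, 1056 to 1868, 1782 to 3489, 1426 to 6032 and 5395 to 7810 of all genes. The array-weighted fit gave 11 in the first, 10 in the third, 8 in the fourth and 12 in the fifth, and 3751, 3591, 3017, 4775, 6430 and 9748 of all genes. Keeping only genes with an SD over mean above 0.5 left fewer genes to test, with 1 in each comparison and 2 by the F test, and 898, 770, 1164, 1161 and 1989 of all genes from the second comparison on. Quantile normalization gave 5 in the second and 2 in the third, and keeping genes above the 40th percentile gave 7 in the first. The 3-prime over 5-prime covariate gave 9 in the third and 1919 of all genes in the fifth. A fit of only the arrays compared gave 10, 5 and 1 in the third to the fifth and 557 of all genes in the fifth, and leaving out CLP, chosen after seeing the data, gave 7 and 6 in the third and the fourth. Why these counts moved was not tested. Of the 51 changes named from the other lists, 15 lost the call with the replicate block, 11 under quantile normalization, 10 in a fit of only the arrays compared and 5 with the 3-prime over 5-prime covariate, and none turned direction under a setting that kept all arrays.

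No pairing by replicate number was seen: same-numbered arrays correlated at -0.54 to 0.51 in their deviations over 30 pairs, 11 of them above 0.1, and 5 of 15 arrays correlated best with their own number. The deviations are from means of only 3 to 5 arrays, so this check cannot exclude a pairing. With the replicate block 3, 1, 2, 1 and 4 of the 28 passed in the 5 comparisons and 9 by the F test, and 968, 906 and 1778 of all genes in the second, the third and the fifth. Values near 16 lie at the background, and 47.3% of all values were under 16, so dim genes such as Mvd and Scd1 could show only large changes.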

Other observations

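A list for sterol efflux, sterol esters and the sterol-sensing LXR receptors had 8 measured genes: Abca1, Abcg1, Apoe, Lipa, Nceh1, Nr1h3, Mylip and Lpcat3. Of these 8, 7 passed limma's F test (87.5%, against 34.9% of all genes). Apoe, the apolipoprotein that carries cholesterol out of cells, read 1578, 955, 1930.02, 994 and 1036 in preMegE, 783, 289.7 and 389.7 in preCFUE, 258, 435 and 209 in MkP, 88.5, 86.8 and 56.8 in preGM and 14.1, 16.9 and 29.9 in CLP. It was higher in preMegE than in preGM (3.78 ± 0.33 SE, adjusted p = 1.52e-06) and lower in MkP (-2.06 ± 0.33 SE, adjusted p = 0.000812) and preCFUE (-1.45 ± 0.33 SE, adjusted p = 0.0109) than in preMegE. The preCFUE call ended without preCFUE replicate 2 or 3 (-1.35 to -1.15, adjusted p 0.0594 to 0.0742). The exporter genes Abca1 and Abcg1, known targets of the sterol-sensing LXR receptors, were lower in preCFUE than in preMegE (-1.66 ± 0.22, adjusted p = 0.000255, and -2.11 ± 0.22, adjusted p = 2.46e-05), and Abca1 was lower in MkP too (-2.11 ± 0.22, adjusted p = 2.26e-05), while Abcg1 was higher in MkP than in preCFUE (1.74 ± 0.24, adjusted p = 0.000195). The size for Abca1 depended on the processing, from -1.87 to -0.55 in preCFUE and from -2.44 to -0.69 in MkP over the alternatives. Both Abca1 calls held in all of them. In preCFUE against preMegE, 4 of these 8 genes fell (50%, against 3.94% of all genes) and 1 rose (12.5%, against 4.75%), and in MkP against preMegE 5 fell (62.5%, against 6.37%) and 0 rose (against 3.98%). Lipa, the lysosomal acid lipase gene, read 295, 307 and 382 in preCFUE and 87.3, 84.0 and 65.5 in MkP (-1.86 ± 0.16 SE, adjusted p = 1.82e-06, for MkP against preCFUE), and it was lower in MkP than in preMegE (-1.36 ± 0.14, adjusted p = 1.99e-05) and in CLP than in preGM (-1.15 ± 0.16, adjusted p = 0.000317). Nceh1, which releases cholesterol from its esters, was lower in CLP (-2.13 ± 0.24, adjusted p = 4.95e-05) and preMegE (-1.06 ± 0.22, adjusted p = 0.00472) than in preGM and in MkP than in preCFUE (-1.01 ± 0.24, adjusted p = 0.0107, lost without preCFUE replicate 1 at -0.91, adjusted p = 0.0528). Apoe was lower in CLP than in preGM (-1.37 ± 0.36, adjusted p = 0.0216), which ended at a pseudocount of 64 (-0.74, adjusted p = 0.129) and without CLP replicate 1 or preGM replicate 1 or 2 (-1.29 to -1.25, adjusted p 0.0764 to 0.0819).

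Of 16 fatty acid oxidation genes, 10 passed the F test (62.5%, against 34.9% of all genes), and 9 of 16 fell in CLP against preGM (56.2%, against 13.3%), with 0 rising (against 5.07%). Leading falls were those of the electron transfer flavoprotein genes Etfa (-1.93 ± 0.43, adjusted p = 0.00918) and Etfb (-1.64 ± 0.45, adjusted p = 0.0259) and of Acadl, a long-chain acyl-CoA dehydrogenase gene (-1.58 ± 0.27, adjusted p = 0.0019). The Etfb call ended under quantile normalization (-1.25, adjusted p = 0.0567) and without CLP replicate 1 or 3 or preGM replicate 1 or 2 (-1.65 to -1.24, adjusted p 0.0667 to 0.119). In MkP against preMegE, 2 fell (12.5%, against 6.37% of all genes), Acadl (-1.19 ± 0.25, adjusted p = 0.00578) and Cpt1a, the gate of mitochondrial fatty acid entry (-0.57 ± 0.15, adjusted p = 0.0235), and 1, Hadh, rose (0.49 ± 0.11, adjusted p = 0.0112, against 3.98% of all genes). Cpt1a also fell in preCFUE against preMegE (-0.53 ± 0.15, adjusted p = 0.0381), and Hadh was lower in preMegE than in preGM (-0.56 ± 0.11, adjusted p = 0.00404). The MkP call for Cpt1a ended under quantile normalization (-0.26, adjusted p = 0.266) and without preMegE replicate 1, 3 or 5 or any MkP array (-0.60 to -0.51, adjusted p 0.0514 to 0.0816), and the preCFUE call without preGM replicate 2, preMegE replicate 1, 3 or 5, MkP replicate 1 or preCFUE replicate 2 or 3 (-0.53 to -0.43, adjusted p 0.0503 to 0.197). In MkP against preCFUE, 3 fell (18.8%, against 10.7% of all genes), Acadl (-1.12 ± 0.27, adjusted p = 0.0123), Acadvl (-1.11 ± 0.27, adjusted p = 0.0124) and Decr1 (-0.95 ± 0.26, adjusted p = 0.0216), and 1 rose (6.25%, against 5.51%). Under quantile normalization Acadvl came to -0.69 (adjusted p = 0.0547). Acadl and Acadvl ended without MkP replicate 3 or preCFUE replicate 1 (-1.04 to -0.98, adjusted p 0.0539 to 0.0606, and -0.99 to -0.97, adjusted p 0.0576 to 0.0627), and Decr1 without MkP replicate 1 or 3 or preCFUE replicate 1 or 3 (-0.94 to -0.80, adjusted p 0.0625 to 0.0998).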
